A study of Homo sapiens with 3 samples.

Results

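The CEP genes encode centrosomal proteins, which carry a number in their name and share a place in the cell more than a common ancestor. All protein-coding genes whose GENCODE 29 symbol is CEP followed by digits, with at most 1 further letter or an L and a digit, were taken. The rule gave 35 genes of the 48162 listed, and all 35 were found in each of the 3 libraries. The libraries came from MDA-MB-231, an established human triple-negative breast cancer line with mesenchymal features, and each group holds 1 library. The groups were a control, cells depleted of FoxO3, and cells depleted of Geminin and FoxO3 together, called the co-depletion. All 3 cultures were exposed to lentivirus for 24 h, moved to new medium and collected 72 h after that. The depletion sequences, the control vector and the number 3 that ends the titles of both depleted libraries are not explained in the sources used here. Because no group was repeated, every difference reported is a difference between 2 libraries, without a replicate check and without a test.

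The centrosome consists of a pair of centrioles surrounded by pericentriolar material, the matrix that nucleates microtubules. Each centriole is copied once per cell cycle, when the kinase PLK4 is brought to the mother centriole and a cartwheel with its microtubule wall is built beside it. The older centriole carries distal appendages, which dock it to the membrane as the base of a primary cilium, and subdistal appendages, which anchor microtubules, while a protein linker holds the pair together until mitosis. FoxO3 is a forkhead transcription factor, and Geminin, the product of GMNN, blocks the relicensing of replicated DNA.

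The depleted genes were low where the labels place the depletion. FOXO3 was at 22.8% of control after FoxO3 depletion and 24.1% after co-depletion, and GMNN at 99.9% and 32.9%. Reads of FOXO3 and its pseudogene copy FOXO3B may be mixed. Totals of 10760613 to 14507410 reads were inferred behind the FPKM values (fragments for each kilobase of a transcript with library size divided out). VIM, CD44 and AXL, markers of the line, summed to 1758 to 2025 FPKM in the 3 libraries. Among markers of other cells, PTPRC and CD3E (leukocytes), CDH5 and VWF (endothelium), COL3A1 and LUM (fibroblasts) and ESR1 and PGR (luminal breast) were each below 0.5 FPKM in every library. Other markers were present, with CD14 at 6.76, 8.09 and 8.59 FPKM, KDR at 5.44, 6.97 and 5.75 and GATA3 at 8.78, 12.1 and 12.6 in the control, FoxO3-depleted and co-depleted libraries. The 4 fibroblast markers summed to 19.9 FPKM in control cells, 40.5 with FoxO3 depleted and 39.1 with both depleted, through COL1A1 and PDGFRB, and the part of any of these in the CEP values was not tested.

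In the control the 34 CEP genes with a mean of at least 1 FPKM over the 3 libraries ran from 1.90 FPKM for CEP126 to 112.9 for CEP55, with a median of 12.3. The median was 8.19 FPKM with FoxO3 depleted and 7.45 with both depleted. In the control 23 of them stood at 10 FPKM or more, and in each depleted library 14 did. CEP162 missed the minimum mean at 0.959 FPKM, just below CEP126 at 1.28, and is described by its values alone. Ratios were taken as log2 of (FPKM + 1) over (FPKM + 1), a scale that understates differences of low genes, and a gene is called lower or higher at 1.5-fold on that scale. Percentages of control are plain FPKM ratios, and the intervals in brackets are exact 95% Clopper-Pearson intervals on recovered whole reads, which cover counting error only.

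**Figure D1:**
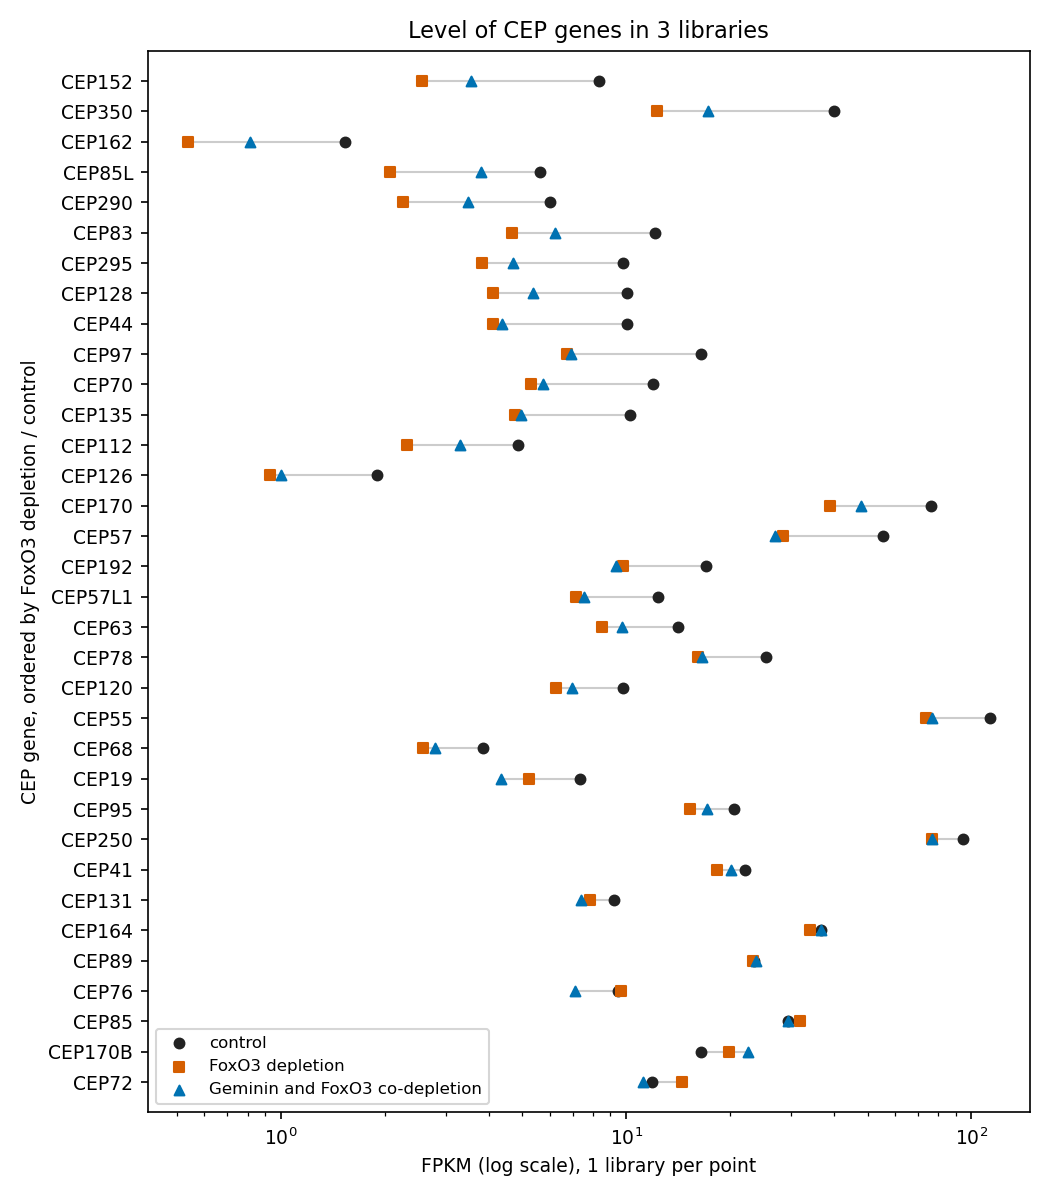
Level of the CEP genes in FPKM on a log axis, with 1 point per library and a grey line over the range of the 3 libraries. Genes are ordered by the FPKM ratio of FoxO3 depletion to control. CEP152 at the top stands at 8.36, 2.56 and 3.55 FPKM in the control, FoxO3-depleted and co-depleted libraries, and CEP72 at the bottom at 11.9, 14.5 and 11.2 FPKM.

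Most CEP genes were lower in both depleted libraries, and 0 were called higher. After FoxO3 depletion 20 of the 34 were called lower, or 58.8%, beside 16.7% of the 12649 named genes with the same minimum mean, and 10 of these passed 2-fold, beside 5.23%. Upward calls were made for 4% of all genes. The median log2 ratio of the CEP genes was -0.65, beside -0.07 for all genes. After co-depletion 15 were called lower, or 44.1%, beside 12.3% of all genes, and 5 of these passed 2-fold, beside 2.25%. Here 4.02% of all genes were called higher, and the CEP median was -0.54 beside -0.06. Both comparisons use the same control library, so they are not separate pieces of evidence. The counting interval of the FPKM ratio lay wholly below 1 for 27 of the 35 genes after FoxO3 depletion and for 28 after co-depletion, and wholly above 1 for 2 genes each time, among them CEP170B in both comparisons and CEP72 in the first. In 22 of the 34 genes the control was highest, the co-depletion in between and the FoxO3 depletion lowest. Counts of intervals and of library order were made for the CEP genes only, so no share of all genes stands beside them. Log2 ratios below 0 were found for 85.3% of the 34 genes in each comparison, beside 57.1% and 56.3% of all genes. In bulk RNA, fewer cells at a given cell-cycle stage and less RNA per cell cannot be told apart.

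The calls depended on base composition. With the trend of ratio on transcript GC content subtracted, 5 of the 34 CEP genes were called lower in each comparison, or 14.7%, beside 8.45% of all genes with FoxO3 depleted and 5.67% with both depleted. None was called higher, beside 5.78% and 4.51%. The medians were then -0.34 and -0.26, beside about 0 for all genes in both. Adjusted values are given with most of the genes called lower that are described next. Beside the counts of each role group stand 16.7% and 12.3% of all genes as deposited, and 8.45% and 5.67% adjusted. The groups hold few genes, so their small adjusted counts say little about a role.

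Genes that set up the platform for centriole copying were mostly lower. Of 8, 7 were called lower after FoxO3 depletion and 5 after co-depletion, or 2 and 2 after GC adjustment, with medians of -0.83 and -0.73. CEP152, the docking protein for PLK4 on the mother centriole, was at 8.36 FPKM in control cells, 2.56 with FoxO3 depleted and 3.55 with both depleted. The control value is the highest and the FoxO3 depletion the lowest. That is 30.6% of control (22.5% to 40.96%) with FoxO3 depleted and 42.4% (32.95% to 54.2%) with both depleted. The log2 ratios of -1.40 and -1.04 became -1.10 and -0.78 after GC adjustment, so it was called lower with and without the adjustment.

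CEP63, the partner of CEP152 in the ring around the centriole, was at 14.1 FPKM in control cells, 8.53 with FoxO3 depleted and 9.73 with both depleted, or 60.4% of control (49.4% to 73.6%) with FoxO3 depleted and 68.9% (57.3% to 82.6%) with both depleted. CEP192, a scaffold of the pericentriolar material that recruits PLK4 and Aurora A, was at 16.99 FPKM in control cells, 9.82 with FoxO3 depleted and 9.34 with both depleted. Its depleted libraries stood close together, at 57.8% and 54.9% of control. Adjusted ratios were -0.42 and -0.26 for CEP63 and -0.45 and -0.56 for CEP192, all short of 1.5-fold. CEP135, which ties the cartwheel to the microtubule wall, was at 10.2 FPKM in control cells, 4.75 with FoxO3 depleted and 4.94 with both depleted, with log2 ratios of -0.96 and -0.92 that were -0.20 and -0.35 after GC adjustment. CEP57, which binds the CEP63 and CEP152 ring, had the highest control level of the group, at 55.3 FPKM in control cells, 28.5 with FoxO3 depleted and 26.97 with both depleted, and its paralogue CEP57L1 was at 12.4, 7.17 and 7.52 FPKM in the same order. The ratios of CEP57 after co-depletion were -1.01 as deposited and -0.63 adjusted, against -0.65 and -0.14 for CEP57L1. CEP85, a factor that promotes PLK4 activation with STIL, was the exception at 29.3 FPKM in control cells, 31.9 with FoxO3 depleted and 29.5 with both depleted, and both of its intervals against the control held 100%.

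The genes of centriole growth, maturation and restraint gave 5 of 7 called lower after FoxO3 depletion and 4 after co-depletion, with medians of -1.04 and -0.92, and 0 and 1 after GC adjustment. CEP97, which caps the distal end of centrioles together with CCP110, was at 16.4 FPKM in control cells, 6.72 with FoxO3 depleted and 6.90 with both depleted. Both depleted libraries were alike and well below the control, at 40.9% of control (35.4% to 47.2%) with FoxO3 depleted and 42.02% (36.7% to 48.04%) with both depleted. CEP295 and CEP44, both needed for a new centriole to become a working centrosome, were at 9.76, 3.83 and 4.69 FPKM and at 10.1, 4.12 and 4.37 FPKM in the control, FoxO3-depleted and co-depleted libraries. CEP70, which binds gamma-tubulin, was at 11.9, 5.30 and 5.73 FPKM in that order. After GC adjustment CEP97 went from -1.17 to -0.54 with FoxO3 depleted and from -1.14 to -0.65 with both depleted, so that only the latter was still called. CEP44 went from -1.11 to -0.35 and from -1.04 to -0.48. CEP295 ended at -0.54 and -0.44 and CEP70 at -0.40 and -0.45, and like CEP44 neither was still called. CEP120, an elongation factor of centrioles, was at 9.76, 6.27 and 6.98 FPKM, and CEP78, a protein of the ciliary base mutated in a cone-rod dystrophy with hearing loss, at 25.4, 16.1 and 16.6 FPKM. Adjusted ratios of CEP78 were -0.42 and -0.39.

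CEP76, which restrains repeated copying of centrioles, stood apart within this group. It was at 9.46 FPKM in control cells, 9.69 with FoxO3 depleted and 7.12 with both depleted. The control and the FoxO3 depletion were level, at a ratio of 102% (81.7% to 128%), while the co-depletion was at 75.3% of control (59.3% to 95.2%) and 73.5% of the FoxO3 depletion (57.1% to 94.5%). At a GC content of 42.00% its log2 ratio after FoxO3 depletion of 0.03 became 0.34 after adjustment, and its ratio after co-depletion went from -0.36 to -0.11. It was the highest adjusted value of any CEP gene in the first comparison.

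Among the genes of the linker, the subdistal appendages and microtubule anchoring, 4 of 8 were called lower after FoxO3 depletion and 3 after co-depletion, or 2 and 1 after GC adjustment, with medians of -0.63 and -0.40. CEP350, a large centrosomal protein that anchors microtubules together with FGFR1OP, had the lowest log2 ratio of all CEP genes in both comparisons. It was at 40.03 FPKM in control cells, 12.3 with FoxO3 depleted and 17.2 with both depleted. The FoxO3 depletion held the lowest value and the co-depletion lay between, which is 30.7% of control (27.3% to 34.4%) with FoxO3 depleted and 42.98% (39.03% to 47.3%) with both depleted. Its adjusted log2 ratios of -1.20 and -0.81 were also the lowest of the CEP genes.

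CEP128, a subdistal appendage protein, was at 10.04 FPKM in control cells, 4.10 with FoxO3 depleted and 5.37 with both depleted, with adjusted ratios of -0.86 and -0.56. CEP170, another subdistal appendage protein, was abundant at 76.5 FPKM in control cells, 39.01 with FoxO3 depleted and 47.7 with both depleted. It shares sequence with the pseudogene CEP170P1, listed at 0.221, 0.119 and 0.157 FPKM, so some of its reads are uncertain, to an extent that was not measured. Its paralogue CEP170B went the other way, at 16.5 FPKM in control cells, 19.8 with FoxO3 depleted and 22.5 with both depleted, or 121% of control (111% to 131%) with FoxO3 depleted and 137% (127% to 148%) with both depleted. CEP250, the anchor of the linker between centrioles, was at 94.6 FPKM in control cells, 77.1 with FoxO3 depleted and 77.1 with both depleted, or 81.5% of control each time. CEP68, a further linker protein, was at 3.85, 2.57 and 2.79 FPKM, CEP112 at 4.86, 2.32 and 3.30 FPKM and CEP95 at 20.6, 15.3 and 17.2 FPKM in the control, FoxO3-depleted and co-depleted libraries. CEP112 was called lower after FoxO3 depletion, with a ratio of -0.82 that was -0.49 adjusted, and CEP68, CEP95 and CEP250 in neither comparison. CEP112 and CEP95 were counted in this group by the list used, and no role is described here for either. The counts of the group rest partly on that placing.

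The proteins of the distal appendages and the cilium were split. Of 7 analysed genes, 2 were called lower after FoxO3 depletion and 3 after co-depletion, or 1 and 1 after GC adjustment. CEP83, the innermost distal appendage protein, was at 12.1 FPKM in control cells, 4.66 with FoxO3 depleted and 6.22 with both depleted, or 38.4% of control (28.98% to 50.4%) with FoxO3 depleted and 51.3% (40.4% to 64.8%) with both depleted. Its ratios of -1.21 and -0.86 were -0.59 and -0.38 adjusted, the first barely past 1.5-fold. CEP164 and CEP89, which sit in the same appendages, did not follow it. CEP164 was at 36.6 FPKM in control cells, 34.01 with FoxO3 depleted and 36.7 with both depleted and CEP89 at 23.5, 23.3 and 23.8 FPKM in the same order, and all 4 intervals held 100%. CEP290, a protein of the ciliary transition zone mutated in Joubert syndrome and Leber congenital amaurosis, was at 6.001 FPKM in control cells, 2.25 with FoxO3 depleted and 3.48 with both depleted, with log2 ratios of -1.11 and -0.64 that were -0.32 and -0.06 after GC adjustment. CEP162, which acts at the base of the axoneme, was at 1.53, 0.538 and 0.812 FPKM on 69, 18 and 31 recovered reads.

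CEP19, which brings the GTPase RABL2 to the ciliary base, was at 7.35 FPKM in control cells, 5.23 with FoxO3 depleted and 4.35 with both depleted. It was called lower after co-depletion alone, with a ratio of -0.64 that was -0.60 after adjustment, and its interval against the FoxO3 depletion held 100%. CEP41, which supports tubulin glutamylation in cilia, was at 22.1, 18.4 and 20.1 FPKM in the same order, so the control was highest and the FoxO3-depleted library lowest.

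The centriolar satellites, granules that carry proteins to the centrosome, are represented by 3 CEP genes. CEP131 was at 9.19 FPKM in control cells, 7.84 with FoxO3 depleted and 7.38 with both depleted, CEP72 at 11.9, 14.5 and 11.2 FPKM and CEP126 at 1.90, 0.932 and 1.002 FPKM. CEP72 was highest after FoxO3 depletion, at 122% of control (100.6% to 148%), and at 94.1% (77.1% to 115%) after co-depletion. CEP126 lay just past the 1.5-fold line after FoxO3 depletion, and was the only CEP gene called lower whose ratio turned, from -0.59 to 0.07, after GC adjustment.

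CEP55, which recruits the abscission machinery to the midbody at the end of cell division, was the most abundant member in the control. It was at 113 FPKM in control cells, 73.9 with FoxO3 depleted and 77.1 with both depleted, or 65.5% of control (60.8% to 70.4%) with FoxO3 depleted and 68.3% (63.7% to 73.2%) with both depleted. On 1086 to 2236 recovered reads the interval of each ratio was narrow, and both depleted libraries lay below the control. The log2 ratios of -0.60 and -0.55 became -0.18 and -0.18 after GC adjustment.

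The CEP transcripts are poor in GC and long. Their median GC content was 41.9%, beside 49.0% for all analysed genes, and their median mean transcript length 2091 bases beside 1537. The median genomic span was 68.8 kb beside 30.8 kb. All 9 CEP genes under 40% GC were called lower after FoxO3 depletion, with a median of -1.11, as were 58.2% of all 1360 genes in that range, whose median was -0.69. Between 40% and 45% GC, 11 of 15 CEP genes were called lower beside 25.7% of 2986 genes, with medians of -0.73 and -0.26. At 45% GC or more 0 of 10 were called lower beside 6.66% of 8303 genes. After co-depletion the counts were 8 of 9, 6 of 15 and 1 of 10, beside 43.2%, 19.7% and 4.5%.

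**Figure D2:**
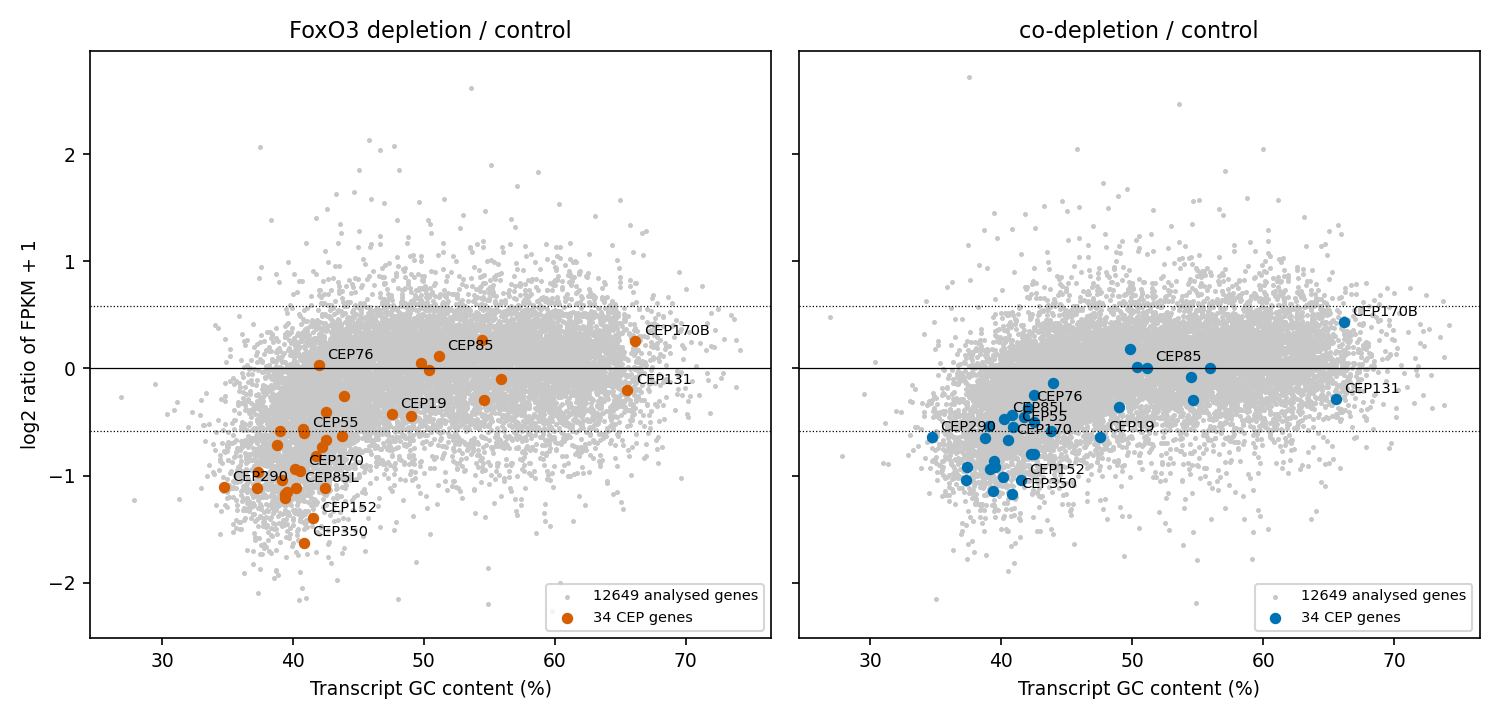
Log2 ratio of FPKM + 1 against transcript GC content in percent, for FoxO3 depletion over control (left) and co-depletion over control (right). Grey points are the 12649 analysed genes, coloured points the 34 CEP genes, and dotted lines mark 1.5-fold. CEP350 at 40.8% GC lies at -1.63 on the left and CEP170B at 66.2% at 0.26.

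Over the 34 CEP genes Spearman's rho between GC content and log2 ratio was 0.76 in both comparisons, beside 0.41 and 0.44 over all 12649 genes. After GC adjustment a rho of 0.30 and 0.33 was left in the CEP genes, beside -0.003 and 0.002 over all genes. These are descriptions across genes that share the same libraries, and no p is given. Mean transcript length was weakly related to the ratio, with a rho of -0.16 after FoxO3 depletion and -0.12 after co-depletion in the CEP genes, and -0.15 and -0.17 over all genes. Mean FPKM gave 0.41 and 0.31 in the CEP genes, beside 0.27 and 0.23 over all genes. After GC adjustment these were 0.31 and 0.22, beside 0.25 and 0.21. The median control level was 12.3 FPKM in the CEP genes and 19.5 over all genes. GC content at the third codon position of the longest coding sequence gave 0.65 and 0.67 in the CEP genes. Subtracting a second trend on transcript length left 4 CEP genes called lower in each comparison, beside 8.38% and 5.52% of all genes, with medians of -0.31 and -0.24.

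Paralogues within the CEP genes differ in GC content as well as in ratio. CEP170 has 40.5% GC and 32.7% at the third codon position, and CEP170B 66.2% and 79.3%. CEP85 has 51.1% and 56.3%, and CEP85L, a paralogue needed for neuronal migration, 40.2% and 37.3%. CEP57 and CEP57L1 are both poor in GC, at 40.1% and 38.8%. To show this difference, the 90 coding bases most alike in each of the first 2 pairs follow, read from GENCODE 29 transcripts with G and C in capitals.
CEP170: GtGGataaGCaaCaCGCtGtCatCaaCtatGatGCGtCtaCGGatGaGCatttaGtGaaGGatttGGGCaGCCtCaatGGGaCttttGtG
CEP170B: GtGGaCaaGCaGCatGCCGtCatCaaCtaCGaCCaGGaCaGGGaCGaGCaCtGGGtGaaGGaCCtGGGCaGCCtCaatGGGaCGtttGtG
CEP85: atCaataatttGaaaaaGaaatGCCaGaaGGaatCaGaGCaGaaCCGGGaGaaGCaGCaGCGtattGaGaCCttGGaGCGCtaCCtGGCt
CEP85L: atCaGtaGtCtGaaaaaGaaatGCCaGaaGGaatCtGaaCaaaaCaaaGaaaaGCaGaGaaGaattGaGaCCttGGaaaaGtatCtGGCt
The first pair covers coding bases 115 to 204 of both genes, matches at 71 of 90 bases and differs at 19, of which 12 are at the third codon position. GC content is 46.7% in the CEP170 stretch and 58.9% in that of CEP170B. The second pair covers bases 1363 to 1452 of CEP85 and 1468 to 1557 of CEP85L, matches at 70 bases, and has 46.7% GC in CEP85 and 36.7% in CEP85L.

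In both pairs the paralogue poorer in GC was the lower one. CEP170 was at 50.97% of control (46.8% to 55.4%) after FoxO3 depletion and CEP170B at 121% (111% to 131%). CEP85L was at 5.63 FPKM in control cells, 2.06 with FoxO3 depleted and 3.79 with both depleted, which after FoxO3 depletion is 36.6% of control (26.5% to 49.9%), against 109% (98.5% to 119.9%) for CEP85. After GC adjustment the log2 ratios were -0.46 against 0.24 and -0.61 against 0.04, so each pair kept its order by a smaller gap. With both depleted the adjusted ratios were -0.26 against 0.36, and -0.08 against -0.04, which leaves almost no gap in the CEP85 pair. The CEP57 pair, alike in GC, was at 51.5% and 57.9% of control.

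The GC adjustment moved most CEP genes towards 0 without centring them there. After it 29 of 34 lay below 0 following FoxO3 depletion and 31 following co-depletion, or 85.3% and 91.2%, beside 50% and 50.2% of all genes. This was not particular to the CEP genes. Of 150 other genes of the centrosome, the cilium and the midbody in the 7 lists described below, 70.7% and 72.7% lay below 0 after adjustment. The lists ranged widely, with 90% and 80% for the satellites and 51.9% and 63% for midbody and abscission. The 5 genes still called lower after FoxO3 depletion were CEP350, CEP152, CEP128, CEP85L and CEP83, all among the 20 called before. After co-depletion they were CEP350, CEP152, CEP97, CEP57 and CEP19, all among the 15. CEP350 and CEP152 appear in both sets, and 0 genes were called higher in either. 

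**Figure D3:**
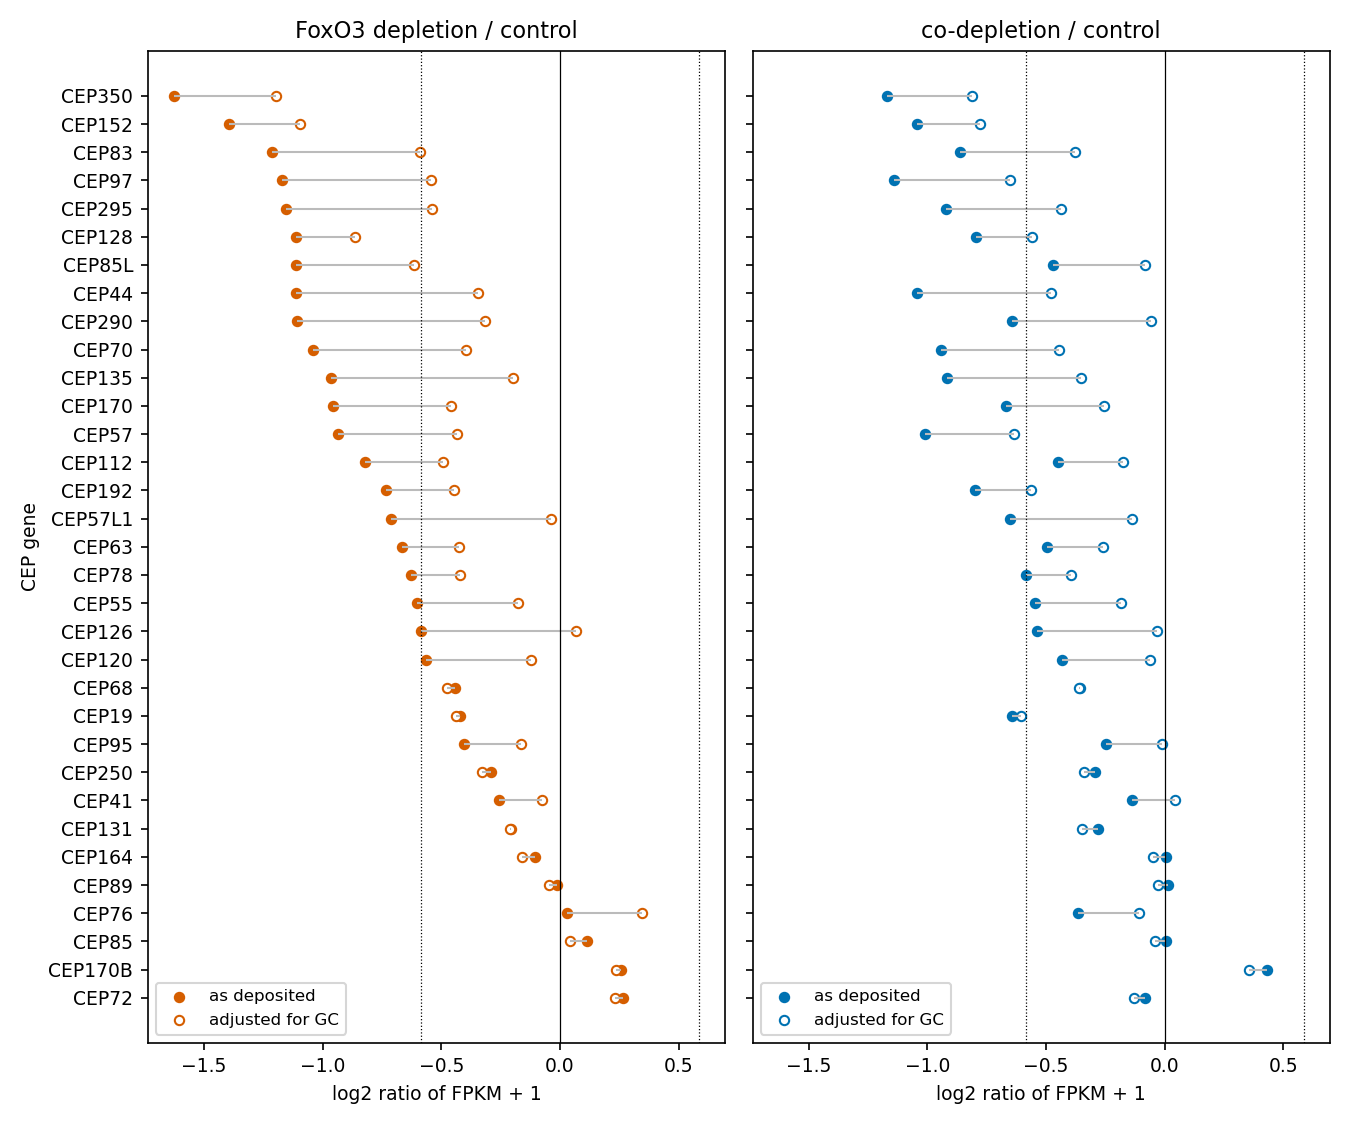
Log2 ratio of FPKM + 1 for the analysed CEP genes as deposited (filled) and after the trend on GC content was subtracted (open), for FoxO3 depletion over control (left) and co-depletion over control (right). Dotted lines mark 1.5-fold, and the open points of 5 genes lie below the lower line in each panel.

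The third comparison asks what the addition of Geminin depletion to FoxO3 depletion changed. CEP genes were close to level between the depleted libraries, with 0 called lower beside 0.617% of all genes and 1 called higher beside 1.35%, and a median log2 ratio of 0.09 beside 0.03. The gene called higher was CEP85L, at 3.79 against 2.06 FPKM, or 184% (131% to 259.9%). The counting interval lay above 100% for 4 further genes, CEP290 at 155% (121% to 198%), CEP350 at 140.0% (123% to 159.9%), CEP170 at 122% (111% to 134%) and CEP170B at 114% (105% to 123%). It lay below 100% for CEP76 and for CEP72, at 77.2% (62.9% to 94.6%). For the other 28 of 35 genes it held 100%, and with reads as few as 18 in a library this allows sizeable differences in the rarer ones.

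**Figure D4:**
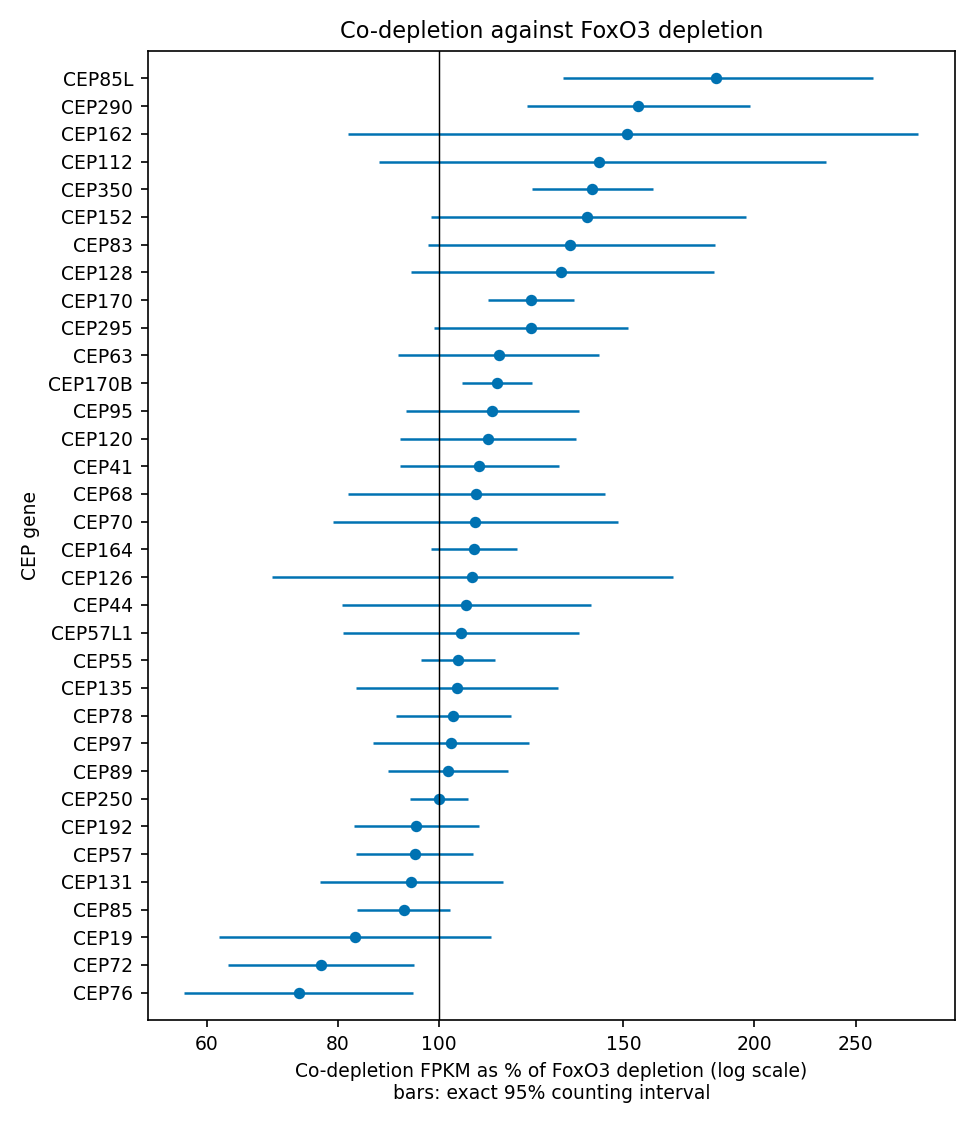
FPKM in the co-depletion as a percentage of that in the FoxO3 depletion for the CEP genes, on a log axis, with exact 95% counting intervals as bars. The bars of 5 genes lie wholly above 100% and those of CEP72 and CEP76 wholly below it.

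CEP genes of long genomic span tended to have the higher ratios of co-depletion to FoxO3 depletion. Spearman's rho between span and log2 ratio was 0.57 over the 34 CEP genes and 0.54 after GC adjustment, beside 0.04 over all 12649 genes both times. CEP112, spanning 557 kb, was at 142% of the FoxO3 depletion (87.6% to 234%) and CEP128, spanning 483 kb, at 131% (94.1% to 183%). CEP85L, spanning 249 kb, was at 184% (131% to 259.9%). CEP19, spanning 6.02 kb, was at 83.1% (61.6% to 112%). Some genes went against the trend, such as CEP192, spanning 134 kb, at 95.1% (82.9% to 109%). CEP170B, spanning 31.5 kb, was at 114% (105% to 123%). After FoxO3 depletion against control the rho with span was -0.55, and -0.45 after GC adjustment, beside -0.18 and -0.08 over all genes. After co-depletion against control it was -0.33, and -0.16 after GC adjustment, beside -0.20 and -0.07. The FoxO3-depleted library is the denominator of one ratio and the numerator of the other, so the opposite signs are not separate observations. After FoxO3 depletion the 20 CEP genes called lower had a median span of 91.2 kb and the other 14 one of 44.9 kb. GC content and span were themselves related, with a rho of -0.36 in both sets of genes.

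**Figure D5:**
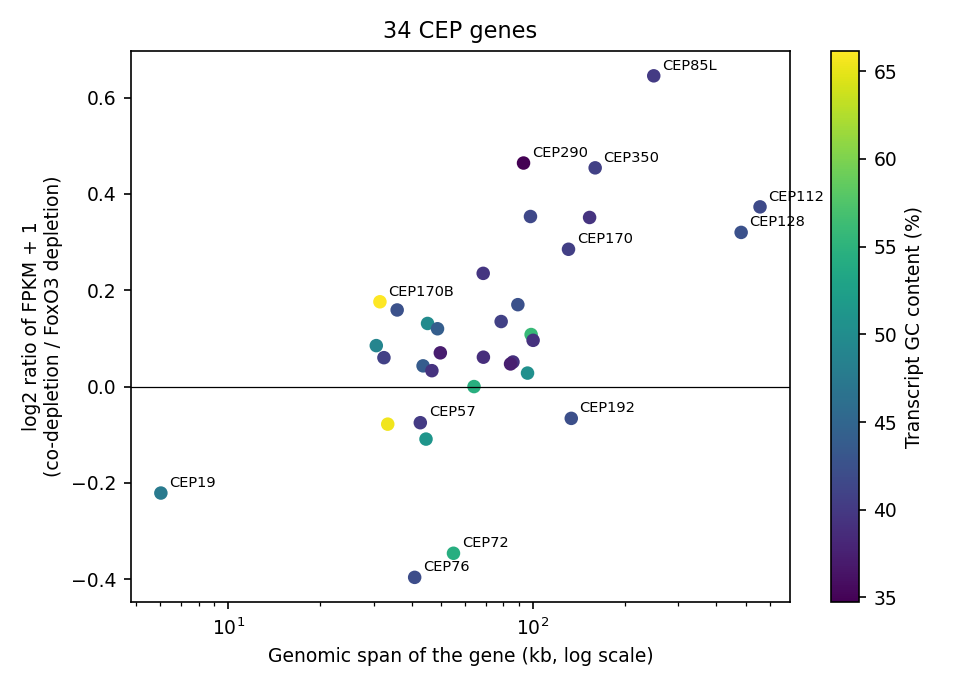
Log2 ratio of FPKM + 1 of co-depletion over FoxO3 depletion against the genomic span of 34 CEP genes in kb on a log axis, coloured by transcript GC content. CEP85L, CEP290 and CEP350 lie highest, and CEP76 and CEP72 lowest.

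Promoter windows were available for 31 of the 35 genes, as 40 windows of 250 bases before to 50 after a start site (RefSeq, GRCh38.p14). Their median GC content of 61.0% was near the 58.7% of all 35116 windows, unlike that of the transcripts. Over 30 analysed genes rho between promoter GC and log2 ratio was 0.22 after FoxO3 depletion and 0.06 after co-depletion. The FOXO core letters TGTTTAC, searched on both strands, were present in 3 CEP windows, or 7.5%, beside 3.42% of all windows. Because FoxO3 was the depleted factor, these stretches are shown 5′ to 3′ on the gene's strand with the match in capitals.
CEP63: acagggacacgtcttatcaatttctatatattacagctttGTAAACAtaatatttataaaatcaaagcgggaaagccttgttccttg
CEP44: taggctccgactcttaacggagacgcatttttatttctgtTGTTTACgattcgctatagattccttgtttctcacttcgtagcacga
CEP83: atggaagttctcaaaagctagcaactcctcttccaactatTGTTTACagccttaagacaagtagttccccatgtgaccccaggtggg
They lie at chr3:134485578-134485664 on the plus strand, chr4:174283682-174283768 on the plus strand and chr12:94460578-94460664 on the minus strand of GRCh38.p14. The match begins 106, 189 and 170 bases before the start site, and that of CEP63 reads on the opposite strand, as GTAAACA. CEP63, CEP44 and CEP83 were at 60.4%, 40.9% and 38.4% of control after FoxO3 depletion. Their log2 ratios after GC adjustment were -0.42, -0.35 and -0.59, and only CEP83 was still called lower. The match is a description of letters and not of a bound site.

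Letters of the cell cycle homology region, TTTGAA on either strand, an element of late cell-cycle promoters, were present in 15 of 40 CEP windows, or 37.5%, beside 15.2% of all windows. Matches lay in 14 genes. CEP55, CEP192, CEP152, CEP295, CEP44, CEP112, CEP135, CEP290, CEP57 and CEP85L were called lower after FoxO3 depletion, and CEP72, CEP76, CEP89 and CEP120 were not. Of these matched genes, CEP152 and CEP85L were still called lower in that comparison after GC adjustment. After co-depletion CEP152 and CEP57 were called lower with the adjustment. The CCAAT box, searched on both strands, was found in 47.5% of CEP windows beside 34.6%. The E2F letters TTTCCCGC or TTTGGCGC were in 2 windows, or 5%, beside 2.27%, and the cAMP response element TGACGTCA in 1, or 2.5%, beside 1.85%. Any relation of these letters to the ratios was not tested.

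Other genes of the centrosome, the cilium and the midbody were taken from lists of the machinery around the CEP proteins. Of 150 analysed genes in the 7 lists together, 47 were called lower after FoxO3 depletion and 40 after co-depletion, with medians of -0.32 and -0.27. These are 31.3% and 26.7%, beside 16.7% and 12.3% of all genes. After GC adjustment 18 and 14 were called lower, or 12% and 9.33%, beside 8.45% and 5.67%. The same shares of all genes apply to each list that follows. Of 27 genes of centriole assembly, 9 were called lower in each comparison, or 33.3%. After GC adjustment 2 and 3 were, or 7.41% and 11.1%, the first below the share of all genes. PLK4, the kinase that starts centriole copying, was at 38.5 FPKM in control cells, 17.1 with FoxO3 depleted and 20.8 with both depleted. ASPM, a spindle pole protein, was at 25.4, 7.83 and 10.2 FPKM and CCP110, the partner of CEP97, at 17.2, 7.25 and 10.3 FPKM. After adjustment their ratios following FoxO3 depletion were -0.51, -0.81 and -0.45. PLK4 was named after its values were seen, as was C2CD3. C2CD3, needed for centriole elongation and distal appendages, was the gene called higher in both comparisons, at 38.6 FPKM in control cells, 81.7 with FoxO3 depleted and 69.2 with both depleted.

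The pericentriolar material and gamma-tubulin list had 4 and 3 of 27 genes called lower, or 14.8% and 11.1%, near the 16.7% and 12.3% of all genes, and 0 after GC adjustment. In it were AKAP9 at 13.8, 5.67 and 7.20 FPKM and NEDD1 at 44.7, 20.9 and 23.2 FPKM in the control, FoxO3-depleted and co-depleted libraries. The other linker genes had 0 of 5 called, with NEK2, the kinase that dissolves the linker, at 45.6, 32.1 and 30.5 FPKM. The other appendage genes had 4 and 3 of 12 called lower, or 3 and 2 after GC adjustment. CNTRL, or centriolin, was at 11.2, 3.31 and 5.003 FPKM and NIN, or ninein, at 37.7, 19.9 and 22.4 FPKM, with adjusted ratios after FoxO3 depletion of -1.28 and -0.82.

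The satellite list had 8 and 5 of 10 genes called lower, with medians of -0.96 and -0.66, the lowest of the 7 lists before GC adjustment. After it 2 and 1 were called and the medians were -0.31 and -0.12, no longer the lowest. PCM1, the scaffold of the satellites, was at 58.8 FPKM in control cells, 22.7 with FoxO3 depleted and 29.6 with both depleted, and OFD1, a satellite and centriole protein mutated in oral-facial-digital syndrome, at 14.9, 6.64 and 7.47 FPKM. Genes of the transition zone and intraflagellar transport gave 18 and 16 of 42 called lower, or 11 and 8 after adjustment. The transport subunits IFT80 and IFT88 were at 8.47, 2.75 and 3.69 FPKM and 6.35, 2.16 and 2.69 FPKM in the same order. RABL2B, a copy of RABL2A whose reads are therefore uncertain, was at 6.05, 2.21 and 2.60 FPKM with 51.7% GC. The midbody and abscission list had 4 of 27 called lower in each comparison, or 14.8%, near the share of all genes, and 0 after adjustment, with ANLN, the scaffold of the cleavage furrow, at 344, 170.0 and 199.7 FPKM.

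Some CEP reads cannot be assigned with certainty, because no source used here gives the strand setting. In GENCODE 29, 7 CEP genes share exonic bases with an opposite-strand gene above 1 FPKM. The largest shares of exonic bases were 8.78% for CEP68 with RAB1A, 6.51% for CEP44 with FBXO8 and 6.29% for CEP95 with DDX5, which stood at 560.0 to 642.7 FPKM. CEP63 shared 2.95% with ANAPC13, CEP290 3.86% with C12orf29, CEP295 2.63% with TAF1D and CEP83 2.56% with PLXNC1.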

How the data were processed

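RNA of 3 MDA-MB-231 cultures, 1 per group, was made into libraries with a TruSeq RNA kit, per the labels' protocols. Reads were aligned with TopHat2 2.0.9, per the submitters' processing notes. The counter, the genome build, the annotation and the strand of counting were not given in the sources used here. The deposited files hold FPKM per Ensembl gene, computed by the authors, and 45342 of 48162 genes were named from GENCODE 29.

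Whole reads were recovered from the FPKM steps for 20465 of 20591 genes above 0 in at least 2 libraries (99.39%, relative tolerance 2e-08), and gave the inferred totals and the exact intervals. Ratios were log2(FPKM + 1) differences over 12649 named genes with a mean of at least 1 FPKM. GC adjustment subtracted the median ratio over 50 bins of mean transcript GC content, and length adjustment a further one over 20 bins of length. With 1 library per group no test was run. The CEP genes and lists were chosen with earlier results of these data known. Values were printed for CEP genes past 1.5-fold against the control and those described by role, and for genes of the comparison lists picked by known role, after their values were seen, from the 4 of each list with the largest absolute ratio. PLK4 and C2CD3 lie outside those 4. Scripts used Python 3.11.15, numpy 2.4.6, pandas 2.3.3 and scipy 1.17.1, and were tested on simulated data. For 1 of the 35 CEP genes the values are not reported here or drawn as a named row, though the counts and medians include it.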

Additional observations from a re-analysis of the deposited data

How the results depend on the processing

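Under GC adjustment genes called lower went from 20 to 5 after FoxO3 depletion and from 15 to 5 after co-depletion, and to 4 and 4 with GC and length adjusted. The medians went from -0.65 to -0.34 and -0.31, and from -0.54 to -0.26 and -0.24. Between the depleted libraries the 1 gene called higher became 0 under both adjustments, and the median of 0.09 became 0.035 with GC and length adjusted. CEP126 after FoxO3 depletion turned from -0.59 to 0.066 with GC and to 0.10 with GC and length adjusted. A 2-fold rule left 10, 5 and 0 genes in the 3 comparisons and a 3-fold rule 1, 0 and 0. A pseudocount of 0.1 gave 2 genes called higher between the depleted libraries and a minimum mean of 5 FPKM gave 0. Under that minimum 15 of 28 CEP genes were called lower after FoxO3 depletion and 13 after co-depletion. Their medians were -0.62 and -0.56, beside -0.03 for all genes in both comparisons. For these adjustments beyond the stricter rules, the cause was not tested. A pseudocount of 0.5, no minimum, rescaling by the median ratio or to TPM, protein-coding genes alone and at least 20 recovered reads made smaller changes to the 9 summary values. Among these, rescaling by the median ratio left 17 genes called lower after FoxO3 depletion, with a median of -0.57. A pseudocount of 0.5 and rescaling to TPM each gave 17 called lower after co-depletion. No share of all genes was computed for the 3-fold rule, the other pseudocounts, the higher minimum or the rescalings. The counts at those settings therefore stand without a background. No paired analysis was possible because each group has 1 library. Depth limits the rarer genes, such as CEP162 with 18 reads after FoxO3 depletion.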

Other observations

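Some genes related to the CEP genes fell outside the naming rule. FGFR1OP, the partner of CEP350 that was later renamed CEP43, was at 23.9 FPKM in control cells, 12.1 with FoxO3 depleted and 13.9 with both depleted, or 50.8% (42.1% to 60.9%) and 58.2% (49.1% to 68.7%) of control. Its log2 ratios were -0.92 and -0.74, and -0.75 and -0.57 after GC adjustment at 43.2% GC. FOPNL, a satellite protein later renamed CEP20, was at 51.1, 46.1 and 39.3 FPKM in the same order, with log2 ratios of -0.14 and -0.37 that were 0.49 and 0.12 after adjustment at 39.3% GC. CEP295NL was at 1.54, 0.377 and 0.826 FPKM on 22, 4 and 10 recovered reads, too few to place its ratio closely.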
